A study of Mus musculus with 12 samples.

Results

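The Pgrmc1 family and the enzymes of heme synthesis were followed across 4 mouse lung adenocarcinoma lines. The 9 genes were the membrane-bound or secreted heme-binding proteins Pgrmc1, Pgrmc2 and Nenf and the heme synthesis enzymes Alas1, Alad, Urod, Cpox, Ppox and Fech. They were taken by gene symbol, all 9 were measured, and 20 probe sets of the 34945 with 1 gene symbol belong to them, out of 18193 genes in all. The members were chosen by the log2 signals of these arrays, since Pgrmc1 had the widest gap between KC4 and the other 3 lines, so every difference from KC4 below is a description and has no test. The stated reason for the choice is that gap. Differences among KC1, KC2 and KC3 were tested, but members and gene lists were picked with earlier results of these data known.

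KC1, KC2 and KC3 are labelled highly metastatic and KC4 poorly metastatic. All 4 were grown from primary lung tumours of mice that are K-rasLA1/+; Cdkn1a-/-, on a background the labels call 127s. K-rasLA1 is an allele that becomes oncogenic in scattered cells, and Cdkn1a encodes the cell-cycle inhibitor p21, so every line, KC4 included, carries both alterations. Each line has 3 arrays, labelled biological replicates of one line, and 1 line stands for the poorly metastatic class, so a property of KC4 and a property of that class cannot be told apart. In bulk RNA, a shift in the makeup of a culture and a change per cell cannot be told apart. The labels do not say which line came from which animal, nor give the age of the mice. P-values measure the spread between the arrays of a line and not the spread between tumours.

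Heme is built in a chain of steps that begins and ends in the mitochondrion and passes through the cytosol. Alas1 makes the first intermediate and sets the pace in most cells outside the red lineage, Alad and later Uros act in building the ring, Urod and Cpox trim its side chains, Ppox oxidises it, and Fech inserts the iron. Pgrmc1 carries a cytochrome b5-like domain that binds heme; it sits in membranes, interacts with cytochrome P450 enzymes and with Fech, and has been linked to the sigma-2 receptor Tmem97 and to sterol handling. Pgrmc2 is its close relative, and Nenf, also called neudesin, is a secreted member of the same family.

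Values are the deposited linear array signals unless a sentence says log2, where signals under 16 were set to 16 first. A gene's value is that of its brightest probe set, and levels are compared between lines for 1 gene, not between genes. All arrays had been scaled to one trimmed mean, and their median signal ran from 94.5 to 128. The epithelial genes Epcam, Cdh1, Krt8, Krt18 and Krt19 were bright in every line, though Epcam was lower in KC4. It averaged 12485.5, 13687 and 9674 in KC1, KC2 and KC3 against 6362 in KC4. The mean of Cdh1 was highest in KC4, at 15437 against 12947, 11114 and 11478. Krt8 averaged 18099, 18528 and 18037 against 16597 in KC4, and Krt18 21286, 21459 and 23693 against 19039. Krt19 averaged 8999, 6893 and 7130 against 7051. The remaining genes of that list were dim. Nkx2-1, the lung lineage factor, averaged 14.3 to 28.9 in KC1, KC2 and KC3 and 45.2 in KC4. Sftpc averaged 117, 105 and 99.6 against 107 in KC4, and Sftpb 225, 239 and 219 against 303. The summed signal of 4 measured erythroid markers, Hba-a1, Klf1, Epb42 and Alas2, lay between 138 and 253 on the arrays of KC1, KC2 and KC3 and between 92.7 and 182 in KC4. Summed signals of 7 fibroblast genes overlapped in the same way, 376 to 591 in the highly metastatic lines and 381 to 653 in KC4. The summed leukocyte genes lay between 393 and 578, with 326 to 473 in KC4, and the endothelial ones between 284 and 480, with 331 to 393 in KC4, where Tie1 and Vwf were at the floor on all arrays. The array carries an 18S ribosomal RNA control at the 5-prime end, which read 605 ± 72.0 in KC1, 451 ± 86.8 in KC2 and 414 ± 39.0 in KC3, compared with 3305 ± 935 in KC4 (SD, n = 3). The other 18S probe sets differed less. The 3-prime one averaged 485, 576 and 590 in KC1, KC2 and KC3 against 868 in KC4. The middle one averaged 289, 309 and 284 against 529. The 5-prime beta-actin control read 17094.5, 16696 and 16264 against 16134. The 18S controls set KC4 apart from the other lines, and their part in the differences from KC4 given here was not tested. Another array control, AFFX-r2-Bs-dap-M_at, was low in KC3, at 662, 583 and 533. It read 1028, 1057 and 1209 in KC1, 1026, 934 and 1098 in KC2, and 1051, 1016 and 1097 in KC4. Further controls were low in KC3 too. AFFX-LysX-3_at read 165, 148 and 156 in KC3, against 244, 243 and 263 in KC1 and 254, 217 and 234 in KC2. AFFX-PheX-M_at read 52.2, 63.8 and 53.5 in KC3, against 90.4, 114 and 104 in KC1. AFFX-ThrX-3_at read 230, 161 and 140 in KC3, against 274, 286 and 269 in KC1. AFFX-r2-Bs-thr-M_s_at was not low, at 227, 219 and 231 in KC3 against 183, 272 and 262 in KC1. The control AFFX-r2-P1-cre-3_at was not low there, at 14672, 14746 and 18762 in KC3, against 15142, 14888 and 14252 in KC1. What the low controls have to do with the differences from KC3 below was not tested. No pair of arrays held identical values.

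Pgrmc1 was bright in the highly metastatic lines and dim in KC4. Its signal was 5208, 5007 and 5331 on the KC1 arrays, 5206, 5858 and 5793 in KC2, and 3408, 3498 and 3595 in KC3, compared with 102, 98.2 and 61.2 in KC4. No array of KC4 came near those of the other lines. The log2 difference from KC4 was 5.93 for KC1, 6.04 for KC2 and 5.36 for KC3, which are signal ratios of 60.9, 66.0 and 41.2. The smallest of these differences, 5.36, was the widest gap of any gene, and the next in size were Runx3 at -4.50 and Bmp4 at -4.35. The KC4 signals were above the floor of 16 and below the median of their own arrays (107, 124 and 111). No detection call was used, and whether these signals rose above background was not tested, so the ratios are of array signals and not exact ratios of transcript. Pgrmc1 had 1 probe set, so no second one can be set beside it.

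Within the highly metastatic class, Pgrmc1 was lower in KC3. It averaged 5182 ± 163 in KC1 and 5619 ± 359 in KC2, against 3500 ± 93.2 in KC3 (SD, n = 3), and the arrays of KC3 overlapped with neither line. On the log2 scale KC1 minus KC3 was 0.57 (SE 0.167, limma adjusted p = 0.0275) and KC2 minus KC3 was 0.68 (SE 0.167, adjusted p = 0.00984). KC1 minus KC2 was -0.12 (adjusted p = 0.714) and those arrays overlapped. The SE of this gene draws on the spread of its dim KC4 signals. With the arrays of KC1, KC2 and KC3 alone the SE was 0.0532 and the limma adjusted p values were 0.000246 and 7.68e-05. In the fit with all lines, KC1 minus KC3 missed the threshold without any single array of KC1 or KC3 (adjusted p = 0.0554 to 0.0779).

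The relatives of Pgrmc1 did not share its gap. Pgrmc2 gave 1553, 1444 and 1497 in KC1, 1319, 1443 and 1341 in KC2, and 1597, 1498 and 1285 in KC3, compared with 1526, 1637 and 1690 in KC4. The arrays of KC1 and KC3 overlapped with those of KC4, and KC2 lay below KC4 by 0.24 on the log2 scale. On this probe set none of the 3 differences among KC1, KC2 and KC3 passed the test (0.13, 0.04 and -0.09 on the log2 scale, SE 0.079, limma adjusted p = 0.298, 0.787 and 0.45). A second, dimmer Pgrmc2 probe set averaged 86.1 in KC1, 135 in KC2 and 82.9 in KC3, compared with 93.3 in KC4. On it KC2 minus KC3 passed at 0.74 on the log2 scale (SE 0.228, limma adjusted p over all probe sets = 0.034), opposite in sign to the brighter probe set.

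Nenf gave 997, 1033 and 781 in KC1, 756, 569 and 850.04 in KC2, and 864, 746 and 812 in KC3, compared with 530.5, 666 and 678 in KC4. KC1 and KC3 lay above KC4 on all arrays, and KC2 overlapped with it. The 3 lines did not differ from each other beyond the test (limma adjusted p = 0.149, 0.436 and 0.501). Cyb5d2, which encodes another secreted relative named neuferricin, was dim everywhere, with 49.2 ± 13.9, 38.9 ± 8.60 and 33.0 ± 11.1 in KC1, KC2 and KC3 against 28.8 ± 34.2 in KC4 (SD, n = 3), where 2 of 3 arrays lay under the floor.

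**Figure D1:**
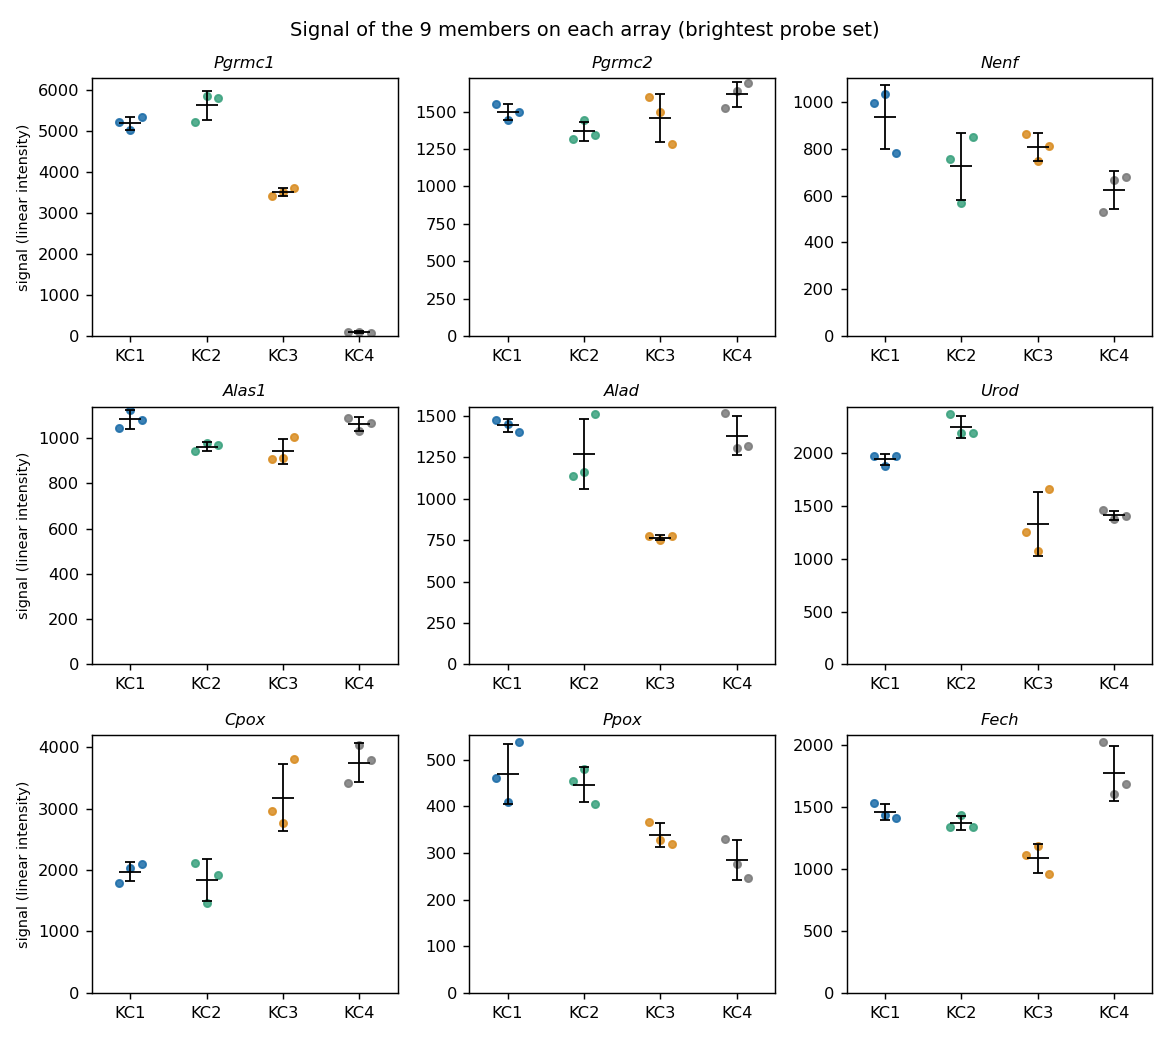
Linear signal (y axis, from 0, its own scale in each panel) of the 9 genes on every array, by line (x axis); points are arrays, the bar and whiskers the mean and SD of 3 arrays. Each gene is shown by its brightest probe set. Pgrmc1 is between 3408 and 5858 in KC1, KC2 and KC3 and at 102 or less in KC4. Among the other 8 genes, the widest log2 difference from KC4 on these probe sets is -1.04, for Cpox in KC2. On a dimmer Fech probe set, 1418698_a_at, which is not shown here, KC3 minus KC4 is -1.71.

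The promoters of the 2 related membrane genes are shown because their transcripts parted in KC4. They come from RefSeq on build GRCm38.p6 and hold 250 bases before the gene start and 50 after it, read along the gene; capitals mark CG pairs, the sites of DNA methylation.
Pgrmc1, chrX:36597943-36598242, plus strand: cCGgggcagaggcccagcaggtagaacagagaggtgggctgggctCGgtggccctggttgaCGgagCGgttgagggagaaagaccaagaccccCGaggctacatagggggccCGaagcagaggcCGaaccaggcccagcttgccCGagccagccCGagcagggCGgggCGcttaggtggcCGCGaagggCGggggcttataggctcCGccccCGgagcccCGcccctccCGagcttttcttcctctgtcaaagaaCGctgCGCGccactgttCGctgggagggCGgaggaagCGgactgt
Pgrmc2, chr3:41082997-41083296, minus strand: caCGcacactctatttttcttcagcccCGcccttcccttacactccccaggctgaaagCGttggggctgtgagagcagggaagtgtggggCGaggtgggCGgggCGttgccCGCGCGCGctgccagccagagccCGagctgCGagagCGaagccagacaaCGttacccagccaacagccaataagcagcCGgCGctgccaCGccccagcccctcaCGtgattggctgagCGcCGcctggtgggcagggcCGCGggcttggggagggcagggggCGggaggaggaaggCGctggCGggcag
The Pgrmc1 window holds 24 CG pairs and the Pgrmc2 window 25, against a median of 7 over 32817 promoters of the same length. Of all promoters, 80.0% hold fewer CG pairs than Pgrmc1 and 81.6% fewer than Pgrmc2. The GC box GGGCGG, searched on both strands, occurs 5 times in the Pgrmc1 window and 3 times in that of Pgrmc2, and 35.6% of all promoters have it at least once. Methylation and factor binding were not measured, and the sequences are a description.

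The gap at Pgrmc1 was not shared by the genes around it on the X chromosome. By the gene order of RefSeq, the 5 nearest measured genes on one side are Gm31556, Dock11, Il13ra1, Zcchc12 and Lonrf3, and on the other Akap17b, Slc25a5, Mdrl, C330007P06Rik and Ube2a. Lonrf3, the next gene on its side, averaged 450 ± 31.1 in KC1, 139 ± 13.6 in KC2 and 105 ± 6.29 in KC3, compared with 83.2 ± 0.793 in KC4 (SD, n = 3), log2 differences of 2.43, 0.74 and 0.33. Akap17b on the other side differed by 0.12, -0.09 and 0.21 on the log2 scale. Slc25a5, an adenine nucleotide carrier of the mitochondrion, averaged 8261 ± 52.4, 4740 ± 42.6 and 10749 ± 426 in the highly metastatic lines against 10061 ± 374 in KC4. The largest difference in the other direction was that of Dock11, -1.70 for KC3 minus KC4.

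**Figure D2:**
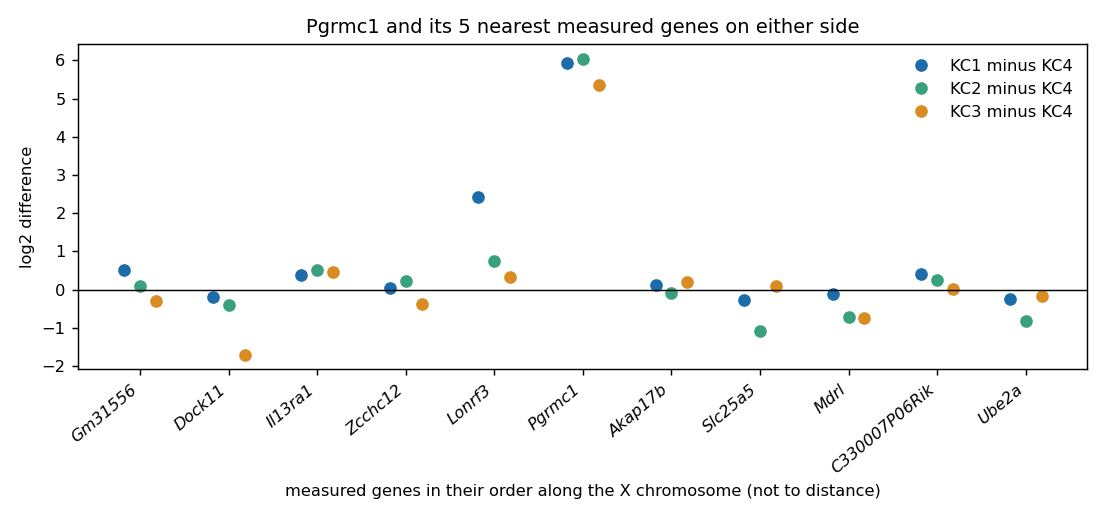
Log2 difference (y axis) of KC1, KC2 and KC3 from KC4 for Pgrmc1 and its 5 nearest measured genes on either side, in chromosome order and not to distance (x axis). Pgrmc1 stands at 5.36 to 6.04, and its neighbours lie between -1.70 and 2.43.

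The genes whose 12 arrays followed Pgrmc1 most closely were Pate14 (Pearson r = 0.995), Ap1m2 (0.991), Cldn4 (0.990), Ctla2b (0.988) and Ubqln2 (0.985), ranked among 9565 genes with a log2 mean of at least 8 in some line. Those that ran most opposite were Socs2 (-0.993), Nrn1 (-0.989), Myrf (-0.989), Ro60 (-0.988) and S100a4 (-0.988). The 12 arrays come from 4 lines, so the correlations describe 4 levels and carry no test. The size of the step to KC4 differed widely among these genes. Ubqln2, a ubiquitin-binding shuttle protein, averaged 5167 ± 159, 5242 ± 370 and 4837 ± 229 in KC1, KC2 and KC3 against 2939 ± 38.2 in KC4 (SD, n = 3). Ap1m2, an epithelial sorting adaptor, averaged 4014 ± 190, 4164 ± 180 and 4193 ± 133 against 656 ± 99.5. Socs2, a suppressor of cytokine signalling, averaged 1134 ± 34.8, 1053 ± 38.8 and 1309 ± 47.4 against 3502 ± 36.6. Of the other members, Ppox had the highest r with Pgrmc1 (0.789) and Cpox the lowest (-0.744).

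The first enzyme, Alas1, differed little between the lines. Its signal was 1042, 1125 and 1082 in KC1, 941, 976 and 969 in KC2, and 908, 909.9 and 1006 in KC3, compared with 1090.35, 1030.1 and 1067 in KC4. The arrays of KC1 overlapped with those of KC4, and KC2 and KC3 lay just below both. KC1 minus KC2 was 0.17 on the log2 scale and KC1 minus KC3 0.20 (SE 0.048 each, limma adjusted p = 0.0283 and 0.00951), and KC2 minus KC3 was 0.03 (adjusted p = 0.672). The KC1 minus KC2 difference missed the threshold without replicate 2 or 3 of KC1, without any 1 array of KC2, and with KC4 left out of the fit (adjusted p = 0.0502). A dim second probe set averaged 110 ± 38.9, 125 ± 30.4 and 93.8 ± 20.7 in KC1, KC2 and KC3 against 141 ± 30.2 in KC4. Alas2, the enzyme's red-cell form, was under the floor on 2 or 3 arrays of every line.

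Alad, the cytosolic enzyme that joins the first intermediates in pairs, was low in KC3 alone among the 4 lines. It gave 1474, 1453 and 1402 in KC1, 1136, 1164 and 1511 in KC2 and 772, 749 and 777 in KC3, compared with 1516, 1306 and 1321 in KC4. KC3 did not overlap with any line, and KC1, KC2 and KC4 overlapped with each other. KC1 minus KC3 was 0.91 and KC2 minus KC3 0.72 on the log2 scale (SE 0.104, limma adjusted p = 0.000129 and 0.000445). A dim second probe set scattered too widely to pass (log2 differences from KC3 of 1.55 for KC1 and 1.00 for KC2, SE 0.722). Averaged over its probe sets, the KC2 minus KC3 difference of Alad was 0.86 and missed the threshold (limma adjusted p = 0.0806).

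Urod, which takes the carboxyl groups off the side chains, was high in KC1 and KC2 and low in KC3 and KC4. It gave 1971, 1882 and 1969 in KC1, 2371, 2194 and 2188 in KC2 and 1256, 1073 and 1664 in KC3, compared with 1461, 1374 and 1402 in KC4. The arrays of KC3 and KC4 overlapped, and neither reached KC1 or KC2. The KC1 minus KC3 difference was 0.57 and KC2 minus KC3 0.78 on the log2 scale (SE 0.131, limma adjusted p = 0.00827 and 0.00112). This probe set is of a kind that can pick up related transcripts. The other, 1417206_at, gave the same grouping, with 639 ± 46.6 in KC1, 586 ± 40.3 in KC2 and 371 ± 26.5 in KC3, compared with 415 ± 29.5 in KC4 (SD, n = 3).

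The promoters of Alad and Urod are printed because both genes were lower in KC3 and both windows hold the E-box CACGTG, shown in capitals. They are RefSeq windows of build GRCm38.p6 as above; for Alad the upstream of 2 listed starts is given.
Alad, chr4:62520014-62520313, minus strand: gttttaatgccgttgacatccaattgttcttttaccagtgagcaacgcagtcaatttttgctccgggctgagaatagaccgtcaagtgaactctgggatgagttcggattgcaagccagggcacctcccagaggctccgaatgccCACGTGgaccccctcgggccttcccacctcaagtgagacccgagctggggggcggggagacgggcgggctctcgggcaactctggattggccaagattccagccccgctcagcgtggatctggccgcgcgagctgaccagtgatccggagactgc
Urod, chr4:116994364-116994663, minus strand: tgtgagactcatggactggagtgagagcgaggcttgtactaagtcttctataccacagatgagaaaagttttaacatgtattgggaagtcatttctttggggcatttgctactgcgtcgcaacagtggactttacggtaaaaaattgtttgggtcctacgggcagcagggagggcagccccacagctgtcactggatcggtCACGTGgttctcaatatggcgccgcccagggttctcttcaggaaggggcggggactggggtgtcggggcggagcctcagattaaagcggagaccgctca
The motif reads the same on both strands and is present in 7.15% of all promoters. It also occurs once in the Pgrmc2 window, and not in the windows of Pgrmc1, Alas1, Cpox or Ppox. Pgrmc1, Alas1 and Ppox were also lower in KC3 than in KC1 without it. Pgrmc2 holds it and did not pass that test on its brightest probe set. Factor binding was not measured, and a part of the motif in the KC3 levels was not tested. The consensus motif of the factor NRF1, searched on both strands, is found in both Alas1 windows and in 4.59% of all promoters. The Alas1 windows overlap, and the same 2 places, in the stretch they share, are counted in each. Of the 9 members, 7 were matched in the promoter table; Nenf and Fech were not.

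Cpox, which acts after Urod, ran the other way from it. Its signal was 1797, 2034 and 2098 in KC1, 2122, 1469 and 1923 in KC2 and 2961, 2771 and 3806 in KC3, compared with 3418, 4044 and 3785 in KC4. KC1 and KC2 overlapped, KC3 and KC4 overlapped, and the pairs lay apart. On the log2 scale KC1 minus KC3 was -0.68 and KC2 minus KC3 -0.79 (SE 0.158, limma adjusted p = 0.009 and 0.00314). A second probe set, 1422493_at, averaged 628 ± 59.2 in KC1, 559 ± 49.8 in KC2 and 1238 ± 79.2 in KC3, compared with 1334 ± 39.7 in KC4 (SD, n = 3). On it KC2 minus KC3 was -1.15 (SE 0.085, limma adjusted p over all probe sets = 8.66e-06). The dim remaining one averaged 62.6, 75.3 and 83.7 in KC1, KC2 and KC3 against 94.0 in KC4, and none of its differences among the highly metastatic lines passed the test.

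Ppox, the oxidase before the last step, gave 460.5, 410.1 and 538 in KC1, 455, 480.3 and 405 in KC2 and 367, 328 and 320.1 in KC3, compared with 331, 277 and 246 in KC4. KC1 and KC2 overlapped and lay above KC3 and KC4, which overlapped with each other. KC1 minus KC3 was 0.47 and KC2 minus KC3 0.40 on the log2 scale (SE 0.132, limma adjusted p = 0.0227 and 0.0391). Both stood close to the threshold and missed it when single arrays were left out. For KC1 minus KC3 these were replicates 1 and 3 of KC1 and replicates 2 and 3 of KC3 (adjusted p = 0.0531 to 0.0805). For KC2 minus KC3 they were replicate 1 of KC1, replicates 1 and 2 of KC2, replicates 2 and 3 of KC3 and replicate 2 of KC4 (adjusted p = 0.0553 to 0.116). The other Ppox probe sets were dim, with means between 19.7 and 83.5.

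Fech, which inserts iron to finish heme and is a known partner of Pgrmc1, gave 3 levels. On its brightest probe set the signal was 1532, 1434 and 1413 in KC1, 1342, 1436 and 1336 in KC2 and 1113, 1189 and 958 in KC3, compared with 2026, 1603 and 1687 in KC4. KC1 and KC2 overlapped, KC3 lay under them and KC4 above them on every array. The KC1 minus KC3 difference was 0.43 and KC2 minus KC3 0.34 on the log2 scale (SE 0.101, limma adjusted p = 0.00886 and 0.0245). The second of these missed the threshold without replicate 1 or 2 of KC2 or replicate 3 of KC3 (adjusted p = 0.0504 to 0.0766). That probe set can pick up related transcripts, and on 2 further ones the steps were wider. Probe set 1418698_a_at averaged 828 ± 70.1 in KC1, 842 ± 71.0 in KC2 and 416 ± 11.6 in KC3, compared with 1359 ± 51.0 in KC4 (SD, n = 3). On it KC1 minus KC3 was 0.99 and KC2 minus KC3 1.01 (SE 0.075, limma adjusted p over all probe sets = 1.44e-05 and 8.29e-06). Probe set 1449181_at averaged 737 ± 29.4, 712 ± 36.3 and 444 ± 24.3 against 1002 ± 18.9. The fourth was at or near the floor in all lines.

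**Figure D3:**
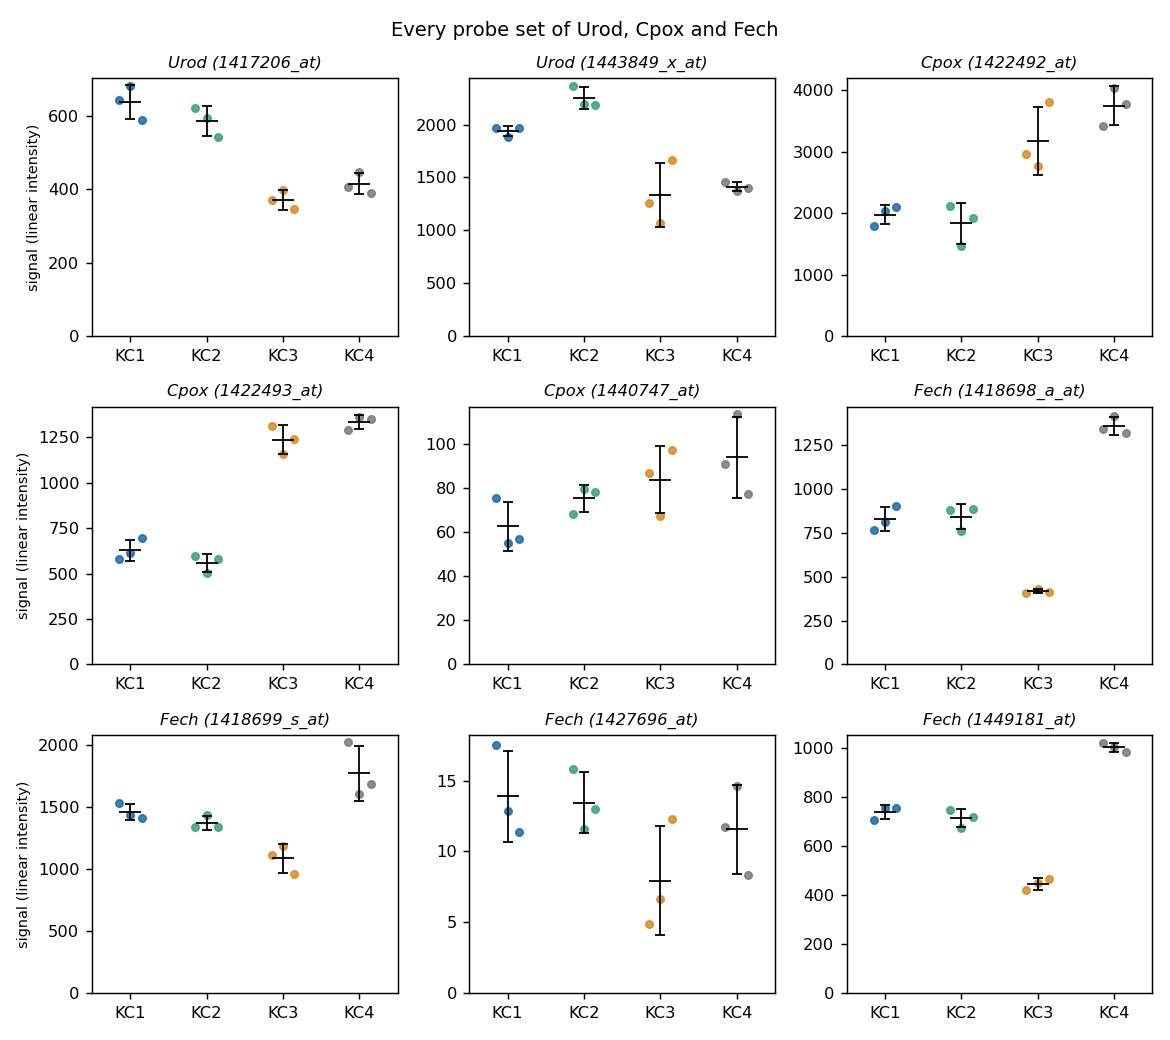
Linear signal (y axis, from 0) on every array for each probe set of Urod, Cpox and Fech, by line (x axis); points are arrays, the bar and whiskers the mean and SD of 3 arrays. Both Urod probe sets are high in KC1 and KC2, the 2 brighter Cpox probe sets are high in KC3 and KC4, and the 3 brighter Fech probe sets are lowest in KC3 and highest in KC4.

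Taken over the 9 genes, the tests set KC3 apart from KC1 and KC2 more often than they parted KC1 from KC2. At an adjusted p under 0.05 with no minimum size, 6 genes were higher (16.6% of all genes were) and 1 lower (16.6%) in KC1 than in KC3, Cpox the lower one, and Pgrmc2 and Nenf did not pass. Over all genes 33.3% passed in that comparison, and 54.9% of the 9097 brightest, to which all 9 belong. In KC2 minus KC3, 5 were higher (19.1% of all genes) and 1 lower (18.8%), where 37.9% of all genes and 62% of the 9097 brightest passed, so this share is near that of genes of their brightness. In KC1 minus KC2, Alas1 alone passed, where 26.4% of all genes (43.6% of the 9097 brightest) did and 14.1% were higher. On its brightest probe set no member passed with a log2 difference of at least 1 as well, where 5.01% (KC1 minus KC2), 8.21% (KC1 minus KC3) and 10.8% (KC2 minus KC3) of all genes did. The largest of these differences was the 0.91 of Alad. On dimmer probe sets, KC2 minus KC3 passed both limits for Cpox (-1.15) and Fech (1.01). Arrays lay wholly apart for 3 members in KC1 minus KC2 (39.7% of all genes), 7 in KC1 minus KC3 (44.6%) and 6 in KC2 minus KC3 (47%). The median log2 difference of the members was 0.43 for KC1 minus KC3 and 0.34 for KC2 minus KC3, against 0 and 0.046 over all genes. Centring each array on its median moved the median of all genes in these comparisons to -0.19 and -0.14, and Pgrmc1, Ppox and Fech then missed the threshold in both and Alas1 in KC1 minus KC3, with no change of sign, while Alad, Urod and Cpox kept their calls.

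**Figure D4:**
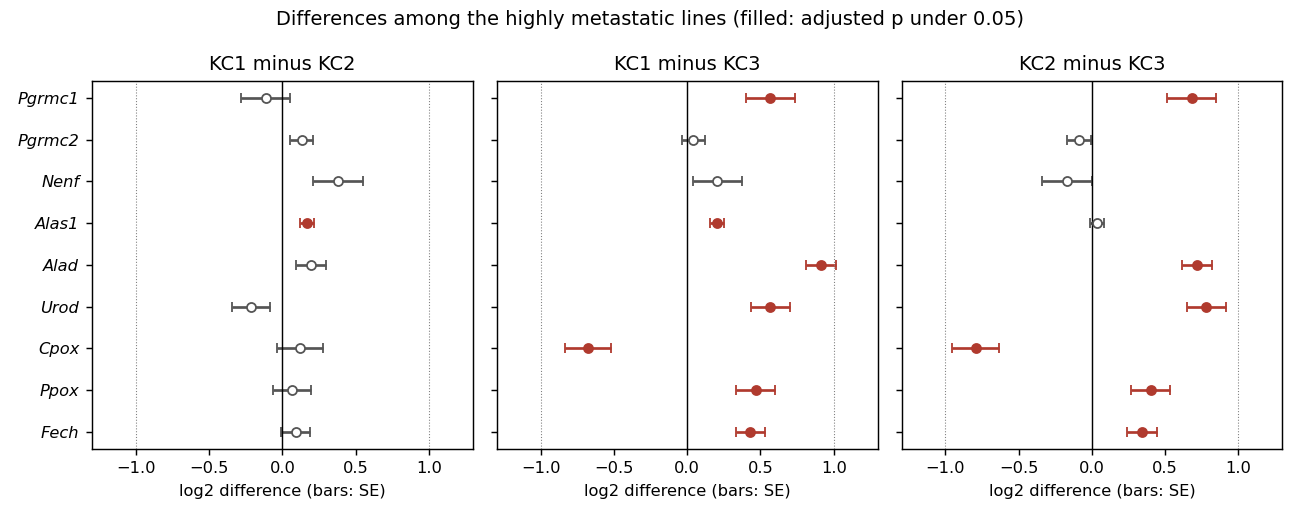
Log2 difference (x axis) of the 9 genes in the 3 comparisons among the highly metastatic lines; points are limma estimates, whiskers 1 SE, filled points passed at an adjusted p under 0.05, and dotted lines mark differences of 1. In KC1 minus KC3 6 genes lie above 0 and Cpox below it among the 7 filled points, and 1 point is filled in KC1 minus KC2.

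Against KC4, with no test and nothing read from the counts, the Pgrmc1 arrays of KC1, KC2 and KC3 lay wholly above those of KC4, as did those of 7.05% of all genes, and the arrays of Fech lay wholly below, as did those of 6.94%. Line by line, arrays lay apart from KC4 for 6 members in KC1 (40% of all genes), 7 in KC2 (44.1%) and 5 in KC3 (44.9%).

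The neighbouring steps of heme chemistry were read from lists that hold 87 further genes, of which 79 were measured. With both limits, 5 were higher and 4 lower in KC1 than in KC2, 10 higher and 1 lower in KC1 than in KC3, and 9 higher and 4 lower in KC2 than in KC3. Those are 11.4%, 13.9% and 16.5% of the measured genes, against 5.01%, 8.21% and 10.8% of all genes. All genes include many dim ones, and these shares were not matched for brightness. The same shares of all genes apply to the counts for single lists below. Fitted alone, the 9097 brightest genes gave 420, 856 and 1257 past both limits. Of the enzymes of the chain outside the 9, Uros was higher in KC3 on its brightest probe set. It averaged 695 ± 58.4 in KC1, 605 ± 40.3 in KC2 and 905 ± 35.0 in KC3, compared with 618 ± 60.7 in KC4 (SD, n = 3). The log2 differences from KC3 were -0.38 for KC1 and -0.58 for KC2 (SE 0.087, limma adjusted p = 0.00779 and 0.000556). A dim second Uros probe set averaged 84.0, 129 and 136 in KC1, KC2 and KC3 against 119 in KC4. On it KC1 minus KC3 was -0.73 and KC2 minus KC3 -0.06 (limma adjusted p over all probe sets = 0.0373 and 0.923).

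Among 11 measured genes of mitochondrial heme and porphyrin transport, 1 passed both limits. Clpx, an unfoldase that activates the Alas enzyme in yeast, averaged 640.5 ± 25.6 in KC1, 323 ± 58.2 in KC2 and 1147 ± 168 in KC3, compared with 758 ± 72.2 in KC4 (SD, n = 3). KC1 minus KC2 was 1.00 and KC2 minus KC3 -1.83 on the log2 scale (SE 0.143, limma adjusted p = 0.000798 and 8.35e-06). The first of these lies at the size limit and fell under it without replicate 1 of KC1 or replicate 1 or 3 of KC2 (0.90 to 0.97), with median centring and with the pseudocount. Averaging its probe sets gave 0.63, and -0.90 for KC2 minus KC3. A dim second Clpx probe set showed no such difference (0.27 and 0.03).

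Of 14 genes of heme use, breakdown and export, 3 passed both limits in KC1 minus KC2, all higher, 2 in KC1 minus KC3, both higher, and 1 in KC2 minus KC3, lower. Hmox1, the inducible heme oxygenase, gave 251, 247 and 262 in KC1, 80.1, 108 and 138 in KC2 and 346, 355 and 313 in KC3, compared with 634, 657 and 681 in KC4. All KC4 arrays lay above those of the other lines. KC1 minus KC2 was 1.26 and KC2 minus KC3 -1.67 on the log2 scale (SE 0.16, limma adjusted p = 0.00042 and 3.17e-05). Blvrb, a biliverdin reductase, averaged 505 ± 51.7 in KC1, 207 ± 78.2 in KC2 and 243 ± 40.5 in KC3, compared with 432 ± 78.1 in KC4 (SD, n = 3). Its KC1 minus KC3 difference of 1.06 (limma adjusted p = 0.0207) missed the threshold without replicate 1 or 2 of KC1 or replicate 3 of KC3 (adjusted p = 0.0616 to 0.0693) and with quantile normalization (0.0544) or median centring (0.0704). Its KC1 minus KC2 difference of 1.36 was just under 1 in size without replicate 1 of KC2. Hebp1, a heme-binding protein of the cytosol, averaged 95.2 ± 38.0 in KC1, 13.8 ± 4.72 in KC2 and 8.28 ± 4.50 in KC3, compared with 226 ± 23.2 in KC4. With 2 arrays of KC2 and 3 of KC3 under the floor, the size of its differences from KC2 and KC3 depends on the floor. They were 2.43 and 2.49 on the log2 scale at the floor of 16, and at a floor of 64 both were 0.55 and did not pass (adjusted p = 0.103 and 0.0894).

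Of 12 measured iron genes, 2 passed both limits in KC1 minus KC3 and the same number in KC2 minus KC3, in each case Tfrc and Slc40a1, both higher than in KC3. Tfrc, the transferrin receptor, gave 12071, 11868 and 11688 in KC1, 11624, 14040.5 and 13236 in KC2 and 3077, 2894 and 2749 in KC3, compared with 5481, 5438 and 5549.6 in KC4. No KC3 array came near the others, and KC4 lay between. On the log2 scale KC1 minus KC3 was 2.03 and KC2 minus KC3 2.15 (SE 0.067, limma adjusted p = 7.94e-08 and 4.01e-08), and both other probe sets gave at least 2.04. Slc40a1, the iron exporter ferroportin, averaged 615 ± 65.9 in KC1, 890 ± 26.4 in KC2 and 300.5 ± 24.0 in KC3, compared with 148 ± 21.5 in KC4 (SD, n = 3). KC1 minus KC3 was 1.03 and KC2 minus KC3 1.57 (SE 0.116, limma adjusted p = 0.000118 and 5.80e-06). The first of these was under 1 in size without replicate 3 of KC1 (0.95) or replicate 2 of KC3 (0.97) and in 4 other settings (0.84 to 0.99). Of 10 measured regulators of Alas1 and heme sensors, 2 passed both limits in some comparison, Ppargc1a and Ppargc1b, coactivators of mitochondrial genes. Ppargc1a averaged 125, 61.9 and 57.6 in KC1, KC2 and KC3 against 120.4 in KC4, and Ppargc1b 25.2, 223 and 60.0 against 206. For Ppargc1a, KC1 minus KC2 was 1.05 on the log2 scale (limma adjusted p = 0.0269) and missed the threshold without replicate 2 or 3 of KC1 or of KC2 (adjusted p = 0.0581 to 0.0917), and KC1 minus KC3 was 1.16 (adjusted p = 0.0132) and missed it without replicate 3 of KC1 (adjusted p = 0.0511). Without replicate 2 of KC3 KC1 minus KC3 was 0.89, under the size limit. For Ppargc1b, KC1 minus KC2 was -3.08 (adjusted p = 0.000699) and KC2 minus KC3 2.04 (adjusted p = 0.00437). At a floor of 64 the first of these was -1.73.

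Of 13 measured P450 and cytochrome b5 genes, 2 passed both limits in KC1 minus KC2, both lower (5.01% of all genes passed). In KC1 minus KC3 4 passed, 3 higher and 1 lower (8.21% of all genes). In KC2 minus KC3 6 passed, 4 higher and 2 lower (10.8% of all genes). Cyp51, a sterol-synthesis P450 that Pgrmc1 is known to bind, gave 2476, 2602 and 2508 in KC1, 2686, 2040 and 2412 in KC2 and 1048, 1020 and 1103 in KC3, compared with 2996, 3086 and 2975 in KC4. KC3 was low on every array and KC4 was above all other arrays. The KC1 minus KC3 difference was 1.26 and KC2 minus KC3 1.16 on the log2 scale (SE 0.085, limma adjusted p = 5.37e-06 and 5.69e-06). Averaged over its probe sets they were 0.92 and 0.86, and with median centring KC2 minus KC3 was 0.97. Cyb5a, the electron carrier cytochrome b5, averaged 4378 ± 322 in KC1, 4925 ± 301 in KC2 and 1671 ± 170 in KC3, compared with 4104 ± 150 in KC4 (SD, n = 3). Cyb5r1, a reductase, ran the other way, with 2376 ± 121, 1703 ± 85.3 and 4777 ± 390 against 2777 ± 87.7. Its KC1 minus KC3 difference of -1.01 was under 1 in size without replicate 3 of KC1 or replicate 1 or 2 of KC3 (-0.96 to -0.98) and with quantile normalization. Cyp2s1 was high in KC2 (1867 ± 253, against 623 ± 54.7 in KC1 and 543 ± 143 in KC3, and 838 ± 219 in KC4). Cyp1a1 was dim and passed in KC2 minus KC3 alone (-1.86, limma adjusted p = 0.0216), and not without replicate 1 or 3 of KC3 (adjusted p = 0.0574 and 0.0704) or with KC1, KC2 and KC3 alone in the fit (0.0507). The Cyp1a1 difference was -2.46 without replicate 1 of KC2, -1.18 without replicate 2 of KC2 and -1.02 at a floor of 64.

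Among 6 measured genes of sigma-2 and sterol regulation, Insig1, a brake on sterol synthesis, was the one past both limits, at 1734 ± 83.5 in KC1, 2397 ± 336 in KC2 and 623 ± 35.5 in KC3, compared with 2005 ± 84.7 in KC4 (SD, n = 3). Tmem97, the sigma-2 receptor, gave 535, 419 and 465 in KC1, 429, 252 and 422 in KC2 and 478, 512 and 412 in KC3, compared with 900, 840 and 816 in KC4. KC4 lay above all other arrays, and the 3 highly metastatic lines did not differ beyond the test (limma adjusted p = 0.194, 1 and 0.175). Of 7 genes on the list of progesterone receptors, which also holds Serbp1, Paqr8 passed both limits. This membrane progestin receptor was higher in KC2 (1117 ± 85.5) than in KC1 (559 ± 68.7) and KC3 (400 ± 49.7), with 370 ± 52.6 in KC4. The KC1 minus KC2 difference of Paqr8 lies at the size limit and was under 1 in size without replicate 2 of KC1 or replicate 2 or 3 of KC2 (-0.90 to -0.97) and with the pseudocount. Serbp1, an RNA-binding partner of Pgrmc1, read 17665 ± 631, 17887 ± 1514 and 18537.5 ± 729.5 against 17015.5 ± 1266. Among 4 further genes with a cytochrome b5-like domain, Suox, the sulfite oxidase of the mitochondrion, gave 1241 ± 37.8 in KC1, 1087 ± 25.4 in KC2 and 591 ± 78.1 in KC3, compared with 5046 ± 424 in KC4. Its KC1 minus KC3 difference was 1.08 on the log2 scale (SE 0.0902, limma adjusted p = 1.90e-05), and 0.89 with median centring.

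**Figure D5:**
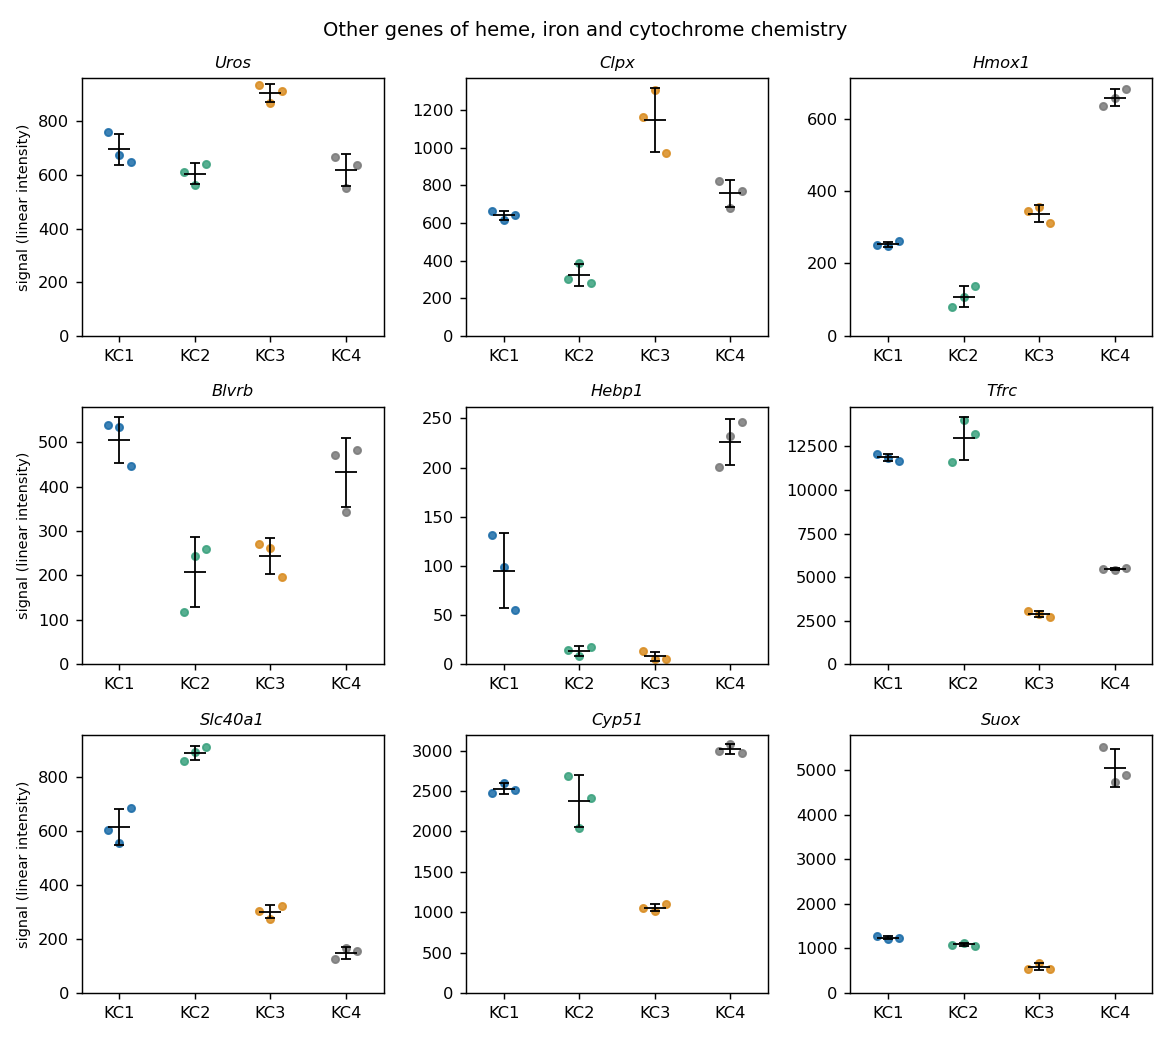
Linear signal (y axis, from 0, its own scale in each panel) on every array of 9 genes outside the set, by line (x axis); points are arrays, the bar and whiskers the mean and SD of 3 arrays. Tfrc and Cyp51 are lowest in KC3, while Hmox1, Hebp1 and Suox are highest in KC4 and Slc40a1 is lowest there.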

How the data were processed

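Total RNA labelled with biotin was measured on 12 one-colour arrays, 3 for each of 4 lines. The deposited table gives a linear intensity for each of 45101 probe sets; the software, background correction and scanner settings are not given in the sources used here. Each array's mean after trimming 2% at both ends was 500.002 to 500.003, which hides any difference in the RNA content of cells. After 64 control probe sets were left out, 34945 had 1 gene symbol in the platform annotation, 932 had several and 9160 were unlisted. Of those with 1 symbol, 34741 matched a RefSeq gene (GRCm38.p6). Signals were floored at 16 and log2 values taken, with 15.3% to 19.9% of probe sets at or under the floor. The brightest probe set stood for each gene.

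Differences were fitted with limma 3.58.1 in R 4.3.3 (1 coefficient per line, all 12 arrays) and adjusted over 18193 genes by Benjamini-Hochberg. A gene passed at an adjusted p under 0.05, and passed both limits if its log2 difference was also 1 or more in size. The script was tested on simulated data. Members and lists were chosen with earlier results of these data known. Named genes were all members, the 5 genes most like and the 5 most unlike Pgrmc1, its 5 measured neighbours on either side, up to 4 genes per list past both limits, and Tmem97, Cyp51, Por, Hmox1, Uros, Alas2, Cyb5d2 and Serbp1. Por and 7 other listed genes were not analysed here, and 1 item of the rule is not reported here. Alternatives are given in the closing section. Precision is limited by 3 arrays per line. Figures were drawn with matplotlib 3.10.9.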

Additional observations from a re-analysis of the deposited data

How the results depend on the processing

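The tests were repeated with the replicate number as a block, without each array, with KC1, KC2 and KC3 alone, with 2 other uses of the probe sets, with the 9097 brightest genes, with quantile normalization, median centring, a floor of 64, a pseudocount of 16, a trended robust prior and a minimum difference of 0.5. Of 322 alternative values for the 14 member differences past the threshold, 281 kept direction and call, 40 missed the threshold and 1 changed sign. The minimum of 0.5 could not change any of these values, and testing every probe set could not change a direction. The number of members that passed stayed at 7 (KC1 minus KC3) and 6 (KC2 minus KC3) with KC1, KC2 and KC3 alone; it was 5 to 7 and 4 to 6 without single arrays, and 3 in each with median centring. In KC1 minus KC2 it was 0 to 2 without single arrays, and 0 with KC1, KC2 and KC3 alone, averaged probe sets, median centring or the pseudocount. Members past both limits numbered 0 without any array; in KC1 minus KC3 the mean of the probe sets gave 1, and a minimum of 0.5 gave 4 there and 4 in KC2 minus KC3.

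Genes past both limits numbered 911, 1494 and 1972 in KC1 minus KC2, KC1 minus KC3 and KC2 minus KC3. They were 843 to 903, 1414 to 1571 and 1915 to 2084 without single arrays, 1621, 2740 and 3633 with every probe set tested, 420, 856 and 1257 among the 9097 brightest, where fewer genes are tested, and 2626, 3828 and 4836 at a minimum of 0.5. With median centring the split turned to 734 higher and 905 lower in KC1 minus KC3 (969 and 525 before) and to 809 and 1334 in KC2 minus KC3 (1073 and 899 before). Pathway genes past both limits numbered 5 to 9, 8 to 12 and 12 to 14 without single arrays (5 in KC1 minus KC2 without replicate 3 of KC2), 7 in KC1 minus KC3 with quantile normalization, 5 in KC1 minus KC2 among the 9097 brightest, and 16, 18 and 39 at a minimum of 0.5. Of 683 alternative values for their 30 named differences, 634 stayed past both limits and 33 passed by adjusted p but fell under the size limit. Of the rest, 16 missed the adjusted p and 0 changed sign. At the minimum of 0.5 none of these calls could be lost.

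The sign changed in these cases. With the mean of the probe sets, KC1 minus KC2 was -0.021 for Alas1 and -0.25 for Pgrmc2, KC2 minus KC3 was 0.32 for Pgrmc2, and Ppox against KC4 was -0.19, where its brightest probe set gave 0.55. With median centring KC1 minus KC3 was -0.15 for Pgrmc2 and KC2 minus KC3 -0.16 for Alas1. Without single arrays, KC1 minus KC2 ran from -0.035 to 0.231 for Cpox and from -0.037 to 0.159 for Ppox (negative without replicate 2 of KC2 for Cpox and without replicate 3 of KC1 or of KC2 for Ppox), and KC1 minus KC3 from -0.047 to 0.11 for Pgrmc2 (negative without replicate 3 of KC3). The cause was not tested. The smallest Pgrmc1 difference from KC4 was 5.13 to 5.50 without single arrays and 5.12 with the pseudocount.

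Deviations of same-numbered arrays of different lines had r = -0.32 to 0.31, above 0.1 in 3 of 18 pairs. Arrays with other numbers had r = -0.33 to 0.35. Deviations from a mean of 3 arrays are not independent, so this check cannot decide whether the numbers pair the samples. With the replicate block, Pgrmc1 in KC1 minus KC3 (adjusted p = 0.0501) and Ppox in KC2 minus KC3 (adjusted p = 0.0541) missed the threshold.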
